A study of Bos taurus with 42 samples.

Results

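The ZNF zinc finger genes are the genes of these bovine libraries whose symbol in the study's supplementary tables is ZNF followed by digits only, with ZNF131 left out. There were 116 of them among the 22664 genes in the counts. RNA-Seq read counts were available for 42 libraries, from the cerebrum, liver and left hind limb muscle of 14 fetuses collected at day 50 of gestation. The dams were Angus-cross heifers bred to a common sire and fed either 100% of their requirement (CON, 7 fetuses) or 60% of the CON intake (RES, 7 fetuses), so all 3 tissues of a fetus share 1 dam. Of the CON fetuses 6 were male and 1 was female, while among RES fetuses the numbers were 5 and 2. Libraries are named by tissue, diet and fetus number, and the replicate is the fetus.

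A zinc finger of the C2H2 type is a short fold held by a zinc ion, and tandem arrays of them read DNA sequence or, in some proteins, bind RNA or other proteins. The largest class of these genes in mammals carries a KRAB domain, which recruits a corepressor complex that lays down repressive chromatin, in large part over transposable elements. Other members without that domain are regulators of neural, skeletal, muscle or fat development, and some act in ribosome assembly, RNA processing or the cytoskeleton. From background knowledge the members were grouped as 53 KRAB zinc finger genes, 14 developmental regulators, 9 RNA, ribosome and cytoskeleton genes and 40 other members.

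The members carry a symbol because the study listed them on these same fetuses, and the choice is therefore not independent of the data. Of the 116 members, 108 were in a table of differentially co-expressed or connected genes, 56 were in a list of key transcription factors and 1, ZNF414 in liver, was in a list of differentially expressed genes. For that reason the shares of the whole family that passed a test for tissue or diet are also set beside those of the genes with a symbol in the same tables (5144 in all).

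Each library held between 4145093 and 12741299 counts. Every member had at least 1 count in every tissue, and 101 of the 116 members had a count in all 42 libraries. A library without a count for a member allows up to 3 counts, which in liver corresponds to between 0.235 and 0.451 CPM (counts scaled to a library's total, not normalised further). This floor covers counting error only. The 3 members that took the most counts over all libraries were ZNF106 with 45955 counts, the kinetochore and microtubule gene ZNF207 with 34363 and the KRAB gene ZNF484 with 27648. Gene lengths of the build used were not analysed here, so the members are not ranked by level.

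The tissue labels were checked against their marker genes, with levels in CPM normalised jointly over the 42 libraries (TMM), which differ from shares of a library's counts. The 8 cerebrum markers had a median of 0 CPM in liver. The hepatocyte markers ALB and AFP had medians of 23430 CPM and 47642 CPM in liver, against 4.45 CPM and 2.03 CPM in cerebrum. The myogenic factor MYOG had a median of 122 CPM in muscle and of 0 CPM in the other tissues. Fetal liver also makes blood cells, and the 6 erythroid markers matched by symbol took between 0.178% and 0.602% of the liver counts, with ALAS2, the first enzyme of haem synthesis in red cells, at a median of 2898 CPM. In bulk tissue, fewer cells of a type and less RNA per cell cannot be told apart.

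Some libraries stood apart. The cerebrum library of RES fetus 1 held the lowest share of cerebrum markers (0.0332% of counts), the highest share of hepatocyte markers among the cerebrum libraries (0.636%) and the highest share of mitochondrial counts among them (14.7%). That library was also the highest of them in erythroid (0.0102%), macrophage (0.00557%), cartilage and mesenchyme (0.0133%) and muscle (0.0164%) markers. Its most abundant hepatocyte marker was TTR, which encodes the carrier protein transthyretin, at 5632 CPM on the jointly normalised scale. In liver the mitochondrial share ran from 4.04% to 67.7%, and its 4 highest values were 67.7% in RES fetus 1, 44.9% in CON fetus 2, 35.6% in RES fetus 6 and 30.5% in RES fetus 33. Among the muscle libraries, CON fetus 73 held the highest share of cerebrum markers (0.0213%), and the next highest was 0.00379% in RES fetus 1.

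The family as a whole took a small share of the counts, and liver had the smallest. The summed share of the 116 genes was 0.479% ± 0.0824 (SD, n = 14) in cerebrum, 0.113% ± 0.0293 (n = 14) in liver and 0.402% ± 0.0256 (n = 14) in muscle. Every liver library, at 0.0373% to 0.144%, lay below every cerebrum and muscle library, at 0.264% or more. With mitochondrial counts left out, the liver share was 0.116% to 0.164%, which is still below the other tissues. The plot of summed shares shows that CON fetus 23 (0.264%) and RES fetus 1 (0.323%) lay below the remaining 12 cerebrum libraries, which ran from 0.471% to 0.546%.

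**Figure D1:**
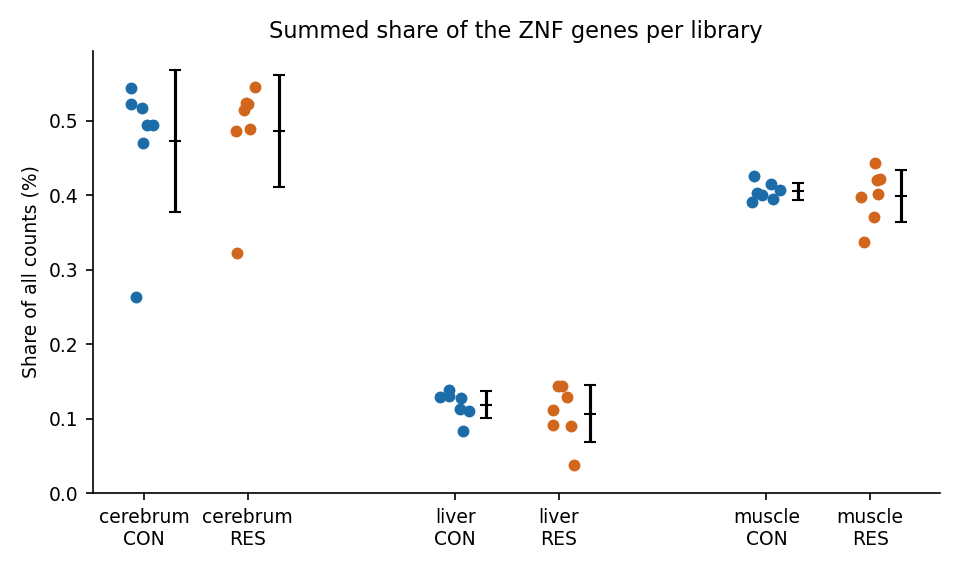
Summed share of the 116 ZNF genes in percent of all counts (y axis) for each tissue and diet (x axis). Each point is 1 fetus, blue for CON and orange for RES, and the black mark beside the points is the mean with its SD (n = 7). All liver points lie under 0.15%, and 1 low point stands apart in each cerebrum group.

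Cerebrum was the tissue in which most members with a difference were higher, and liver the one in which most were lower. In a joint fit over all 42 libraries with sex and diet as covariates (edgeR quasi-likelihood test, adjusted over all 15972 genes tested), 80 members were higher and 18 lower in cerebrum than in liver, against 45.2% and 38.5% of all genes tested and 40.8% and 44% of those with a symbol. Between cerebrum and muscle, 53 were higher and 18 lower in cerebrum, against 35.9% and 32.2% of all genes and 33.1% and 36.1% of those with a symbol. Between liver and muscle, 21 were higher and 75 lower in liver, against 36.6% and 45.5% of all genes and 39.9% and 44.1% of those with a symbol. The median log2 difference of the members was 1.22 for cerebrum minus liver, 0.32 for cerebrum minus muscle and -0.74 for liver minus muscle, where the medians of all genes tested were 0.17, 0.06 and -0.21. Over the 5117 tested genes with a symbol in the study's tables the medians were -0.06, 0.00 and -0.10.

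A tissue was called preferred where a member was higher there than in both other tissues at an adjusted p under 0.05 and a log2 difference of at least 1 in each. By this rule 30 members preferred a tissue and 86 did not. Cerebrum was preferred by 21 members (18.1%, against 13.9% of all genes tested and 12.6% of those with a symbol), muscle by 7 (6.03%, against 9.79% and 11.6%) and liver by 2 (1.72%, against 19% and 23.3%). By the mirrored rule, 49 members (42.2%) were lower in liver than in both other tissues, against 25.7% of all genes and 24% of those with a symbol. Of these 49, 8 fell under the filter on low counts in liver itself and entered the joint fit through the other tissues. The same held for ZNF641, ZNF81, ZNF446, ZNF793 and ZNF404 among the cerebrum members and for ZNF469, ZNF703, ZNF467 and ZNF185 among the muscle members. Under a stricter filter on low counts, cerebrum was preferred by 15.3% of members (7.84% of all genes) and muscle by 3.06% (6.62%). No member was lower in cerebrum or in muscle than in both others (0 members under the DESeq2 Wald test too). Of all genes 9.41% and 3.75% were, and of those with a symbol 12.5% and 3.6%. Without RES fetus 1 and CON fetus 23, 17 members preferred cerebrum (14.7%, against 13.9% of all genes), so that the members' share was near the background. In that fit 3 preferred liver (2.59%, against 19.4% of all genes) and 7 muscle (6.03%, against 9.88%). Lower in liver than in both others were 47 (40.5%, against 24.4% of all genes). The scatter of the tissue differences has most members to the right of zero on the axis of cerebrum minus liver.

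**Figure D2:**
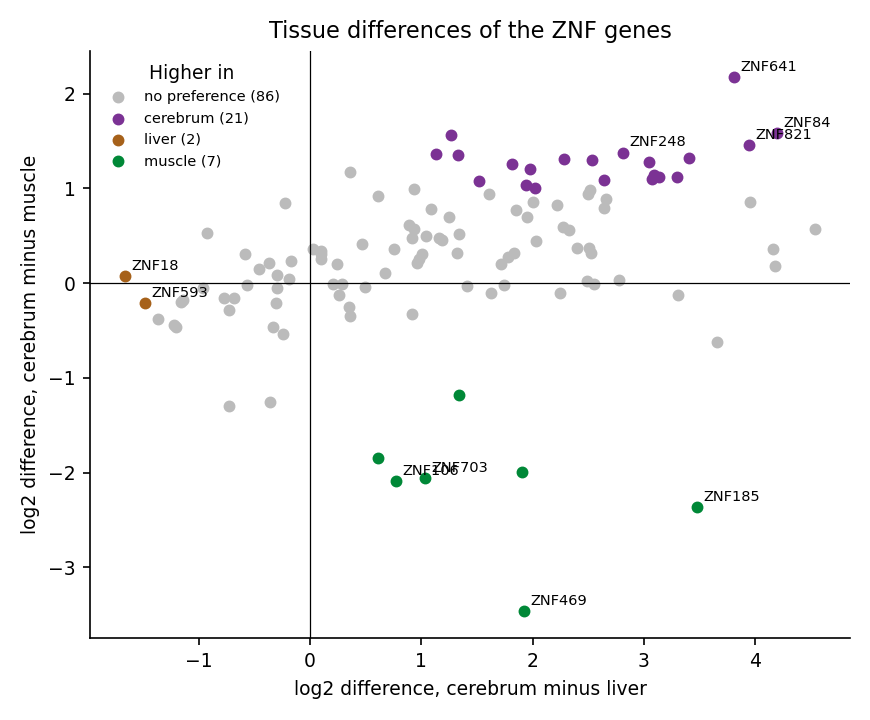
Log2 difference of cerebrum minus liver (x axis) and cerebrum minus muscle (y axis) for the 116 ZNF genes from the joint fit. Each point is 1 gene, coloured by its preferred tissue with the number of genes in the key, and the 10 named genes lead their tissue. Of the points, 90 lie to the right of zero on the x axis.

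Most KRAB zinc finger genes were higher in cerebrum than in liver. Of the 53, 40 were higher and 5 lower, where 45.2% and 38.5% of all genes tested were, with a median log2 difference of 1.61 beside 0.17. Cerebrum was preferred by 11 of them (20.8%, near the 18.1% of the whole family, against 13.9% of all genes), liver by 1 (1.89%, against 19%) and muscle by 0 (against 9.79%). Lower in liver than in both other tissues were 25 (47.2%, against 25.7%). Of the 11, ZNF641, ZNF81, ZNF446 and ZNF793 fell under the filter in liver, and of the 25, ZNF641, ZNF446, ZNF214 and ZNF713 did. These genes entered the joint fit through the other tissues. The KRAB members took 0.158% ± 0.0357 (SD, n = 14) of the cerebrum counts, 0.0304% ± 0.00877 of the liver counts and 0.101% ± 0.0126 of the muscle counts.

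ZNF641 (ENSBTAG00000016496), a KRAB gene, led the members that preferred cerebrum, ranked by the smaller of their 2 differences. Its level, in jointly normalised CPM as for all tissue values below, ran from 0.378 to 7.45 with a median of 4.31 in cerebrum. It ran from 0 to 0.712 in liver with a median of 0.210, and from 0.555 to 1.74 in muscle with a median of 0.993. Cerebrum RES fetus 1 held the lowest cerebrum value, which lay within the range of the liver libraries. ZNF641 was higher in cerebrum than in muscle by a log2 difference of 2.17 ± 0.25 (SE, adjusted p = 4.99e-10). Its liver level rested on 22 counts over 14 libraries, under the filter in that tissue, so no size is given for the difference from liver.

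ZNF84 (ENSBTAG00000013001) and ZNF248 (ENSBTAG00000013592), also KRAB genes, were also among the 4 leading members. ZNF84 had a median of 108 CPM in cerebrum (56.4 to 177), of 5.73 CPM in liver (0.415 to 15.3) and of 38.4 CPM in muscle (21.8 to 48.0). The cerebrum and muscle libraries did not overlap for ZNF84, and neither overlapped with liver. Its log2 difference was 4.20 ± 0.20 (SE) over liver and 1.59 ± 0.18 over muscle (adjusted p = 2.01e-22 and 1.85e-10). ZNF248 had a median of 23.8 CPM in cerebrum (6.42 to 39.4), of 2.83 CPM in liver and of 10.1 CPM in muscle. Cerebrum RES fetus 1, at 6.42 CPM, again lay within the range of the other tissues, and the log2 differences were 2.81 ± 0.25 and 1.38 ± 0.23.

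ZNF821 (ENSBTAG00000021438), one of the other members, completed the 4. It had a median of 102 CPM in cerebrum (65.7 to 143), of 5.24 CPM in liver (1.60 to 17.3) and of 35.2 CPM in muscle (29.6 to 44.8). The 3 tissues did not overlap. It was higher in cerebrum by a log2 difference of 3.95 ± 0.22 (SE) over liver and of 1.45 ± 0.19 over muscle (adjusted p = 2.48e-20 and 1.12e-08).

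Among the 14 developmental regulators, 3 preferred cerebrum (21.4%, against 13.9% of all genes), 5 preferred muscle (35.7%, against 9.79%) and 0 preferred liver (against 19%). Lower in liver than in both other tissues were 8 (57.1%, against 25.7%). ZNF469, ZNF703 and ZNF467, which are among both the 5 and the 8, fell under the filter in liver. They had 20, 68 and 85 counts over 14 libraries there and entered the joint fit through the other tissues. The regulators that preferred cerebrum were ZNF219, a partner of the cartilage factor SOX9, with ZNF704 and ZNF644. ZNF219 had a median of 28.4 CPM in cerebrum, against 11.8 CPM in liver and 11.5 CPM in muscle. ZNF644, a partner of the G9a and GLP histone methyltransferases, had a median of 129 CPM in cerebrum, of 37.6 CPM in liver and of 68.7 CPM in muscle. ZNF704 had medians of 3.79, 1.44 and 1.67 CPM in cerebrum, liver and muscle.

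ZNF469 (ENSBTAG00000045507), a gene linked to the collagen matrix of the cornea, led the muscle members. Its median was 12.1 CPM in muscle (7.81 to 17.5), 0.846 CPM in cerebrum (0.185 to 2.55) and 0.172 CPM in liver (0 to 1.47). Every muscle library lay above every cerebrum and liver library. The log2 difference was -3.46 ± 0.31 (SE) for cerebrum minus muscle (adjusted p = 4.63e-13). In liver ZNF469 had 20 counts in all, with 6 of 14 libraries at 0, and no size is given for that difference.

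ZNF703 (ENSBTAG00000013943) and ZNF503, related corepressors of the NET family, preferred muscle as well. ZNF703 had a median of 8.13 CPM in muscle (5.21 to 9.75), of 1.65 CPM in cerebrum (0.505 to 4.26) and of 0.840 CPM in liver (0 to 1.98). Its muscle libraries did not overlap with those of the other tissues, and the log2 difference was -2.06 ± 0.23 (SE) for cerebrum minus muscle. In liver it had 68 counts in all, under the filter there. ZNF503 had medians of 27.2, 5.21 and 1.59 CPM in muscle, cerebrum and liver. The fat cell regulators ZNF516 and ZNF467 had medians of 28.3 CPM and 7.25 CPM in muscle, against 7.85 CPM and 3.03 CPM in cerebrum and 5.55 CPM and 1.17 CPM in liver.

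A further 3 developmental regulators had no preferred tissue, with cerebrum and muscle both above liver. ZNF462, which is needed for brain development, had a median of 132 CPM in cerebrum (90.7 to 221), of 101 CPM in muscle (59.1 to 122) and of 5.67 CPM in liver (3.47 to 11.9). Its cerebrum minus liver log2 difference of 4.54 ± 0.15 (SE, adjusted p = 7.19e-28) was the highest among the members. ZNF423, a regulator of fat cell commitment and cerebellar development, had medians of 76.3, 70.8 and 4.32 CPM in cerebrum, muscle and liver. Its paralog ZNF521 had medians of 82.3, 146 and 6.38 CPM. For all 3 genes, every liver library lay below every cerebrum and muscle library. ZNF395 showed another order, with medians of 35.4 CPM in cerebrum, 64.9 CPM in liver and 101 CPM in muscle. ZNF281, linked to stem cell pluripotency, had medians of 18.5, 7.60 and 14.4 CPM in cerebrum, liver and muscle, and ZNF367 had medians of 7.63, 9.72 and 9.14 CPM and passed none of the 3 tests.

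The RNA, ribosome and cytoskeleton genes held the muscle genes ZNF185 and ZNF106 and the liver gene ZNF593. ZNF185 (ENSBTAG00000005776), a LIM domain protein of the actin cytoskeleton, had a median of 14.9 CPM in muscle (8.60 to 18.2), of 2.94 CPM in cerebrum (1.13 to 4.52) and of 0.200 CPM in liver (0 to 0.596). The 3 tissues did not overlap, and the log2 difference was -2.36 ± 0.19 (SE) for cerebrum minus muscle (adjusted p = 3.32e-14). In liver ZNF185 had 18 counts in all, with 4 of 14 libraries at 0, and no size is given for that difference. ZNF106 (ENSBTAG00000004079), an RNA-binding protein needed for neuromuscular function, had a median of 320 CPM in muscle (141 to 435), of 73.7 CPM in cerebrum (37.9 to 111) and of 38.9 CPM in liver (27.4 to 69.7). Its muscle libraries also lay above all others, by log2 differences of -2.09 ± 0.17 and -2.86 ± 0.18 for cerebrum and liver minus muscle.

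Liver was preferred by ZNF18 (ENSBTAG00000004675), a KRAB gene, and by ZNF593 (ENSBTAG00000009562), a factor of large ribosomal subunit assembly. ZNF18 had a median of 40.2 CPM in liver (26.2 to 93.6), of 13.9 CPM in cerebrum (9.42 to 27.1) and of 13.9 CPM in muscle (11.4 to 17.2). Liver overlapped with cerebrum only at the edge of their ranges and did not overlap with muscle. The log2 difference was -1.66 ± 0.15 (SE) for cerebrum minus liver and 1.74 ± 0.15 for liver minus muscle (adjusted p = 2.36e-13 and 8.18e-14).

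ZNF593 had a median of 18.4 CPM in liver (10.9 to 31.0), of 5.36 CPM in cerebrum (2.22 to 21.8) and of 7.27 CPM in muscle (5.8 to 11.4). The high cerebrum values came from CON fetus 23 and RES fetus 1, the libraries with the lowest family shares. Its log2 difference was -1.49 ± 0.22 (SE) for cerebrum minus liver and 1.28 ± 0.22 for liver minus muscle (adjusted p = 7.99e-08 and 1.34e-06). Without CON fetus 23 the cerebrum minus muscle difference of ZNF593 moved from -0.21 (adjusted p = 0.411) to -0.48 (adjusted p = 0.0165). ZNF622, another ribosome maturation factor, had medians of 40.4, 26.4 and 27.5 CPM in liver, cerebrum and muscle, and the nucleolar gene ZNF330 had 35.9, 17.9 and 18.3 CPM. Both were higher in liver than in each other tissue, but by a log2 difference under 1.

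Of the other genes of this group, ZNF346, a binder of double-stranded RNA, was lower in liver than in both other tissues, with medians of 8.76 CPM in liver, 31.9 CPM in cerebrum and 25.7 CPM in muscle. ZNF207 had medians of 150, 94.2 and 116 CPM in cerebrum, liver and muscle. ZNF326, which acts in splicing and elongation, had 80.3, 49.3 and 68.1 CPM, and ZNF277 had 72.3, 34.2 and 64.5 CPM.

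**Figure D3:**
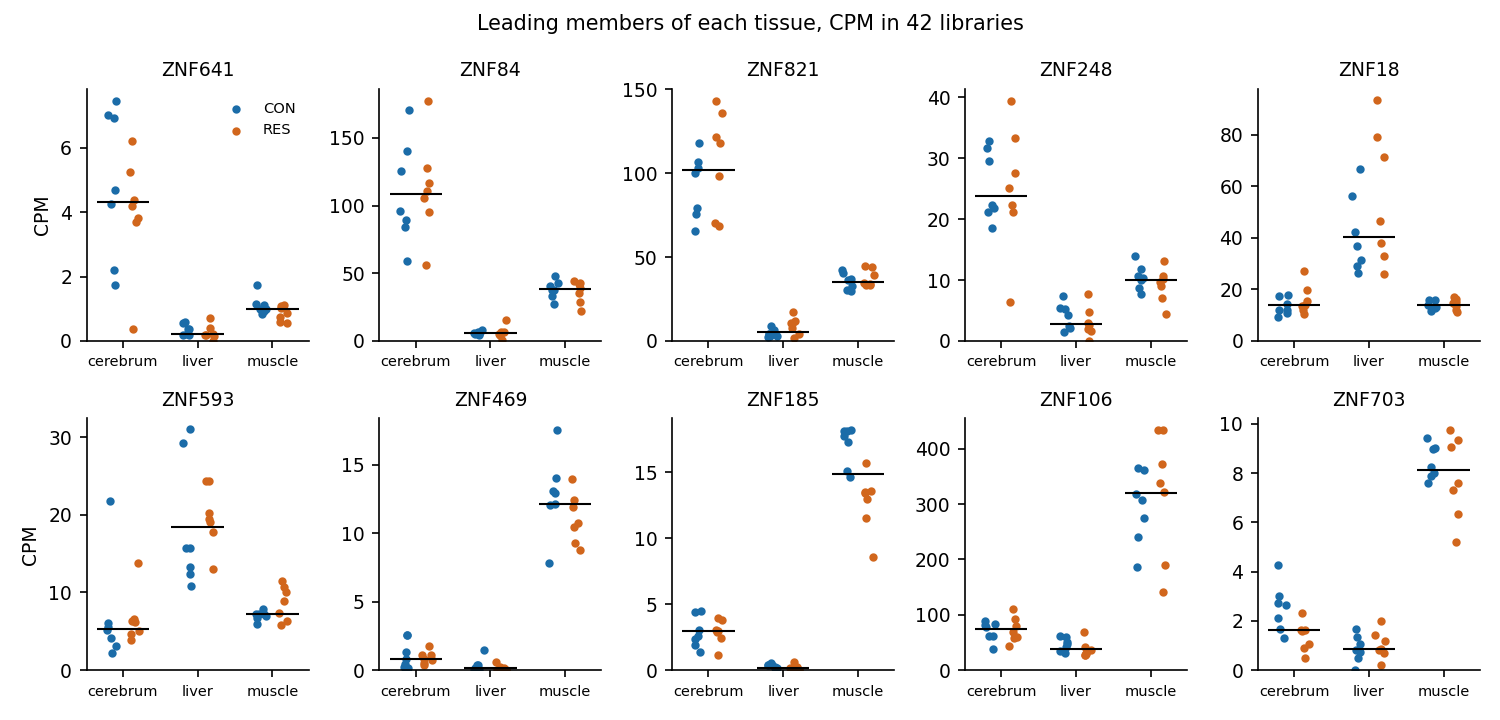
CPM normalised jointly over 42 libraries (y axis, a separate linear scale from 0 for each gene) in cerebrum, liver and muscle (x axis) for the 10 members that lead their tissue. Each point is 1 fetus, blue for CON and orange for RES, and the black line is the median of 14 libraries. ZNF18 and ZNF593 are highest in liver, while ZNF469, ZNF185, ZNF106 and ZNF703 are highest in muscle.

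Members that lie next to each other in the genome were compared for their preferred tissue. By gene order in the RefSeq table of assembly ARS-UCD2.0, which was used for order only, 24 members formed 12 neighbouring pairs. None of the 12 pairs preferred the same tissue, and in 2 pairs (ZNF32 with ZNF239, and ZNF12 with ZNF316) both members were lower in liver than in both other tissues. With 18.1% of all members preferring cerebrum and 42.2% lower in liver, nothing is read from these counts. Neighbouring zinc finger genes can be near copies of each other, so reads may have been split between them.

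Of 26 genes listed around the KRAB corepressor complex, 10 were matched by symbol. Those not matched, and so not analysed here, included the central corepressor TRIM28, the histone methyltransferase SETDB1, CHD3, CHD4, HDAC1, HDAC2 and DNMT1, so nothing is said of the complex as a whole. Of the 10, 4 were higher and 4 lower in cerebrum than in liver (45.2% and 38.5% of all genes), 4 were higher and 4 lower in cerebrum than in muscle (35.9% and 32.2%), and 3 were higher and 4 lower in liver than in muscle (36.6% and 45.5%). CBX1, a heterochromatin protein, had medians of 30.4, 3.61 and 26.4 CPM in cerebrum, liver and muscle. SUMO2, a small protein modifier, had 195, 84.4 and 141 CPM. In contrast, GATAD2A, a subunit of the NuRD complex, had 29.7, 91.6 and 77.7 CPM, and UHRF1, which maintains DNA methylation, had 38.4, 82.5 and 85.5 CPM. ZFP57, itself a KRAB protein, which protects imprints, had 7.92, 9.71 and 22.8 CPM. MORC3, an ATPase of nuclear bodies, had 27.9, 7.83 and 19.0 CPM.

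Maternal diet gave no member that passed the test in any tissue. Diet was tested within each tissue with fetal sex as a covariate (edgeR quasi-likelihood test, adjusted over 15151 genes in cerebrum, 13527 in liver and 14947 in muscle), and 116, 104 and 115 members passed the filter on low counts. The 12 members not tested in liver included the muscle genes ZNF469, ZNF185, ZNF467 and ZNF703. At an adjusted p under 0.05, 0 members and 0% of all genes differed in each tissue. The lowest adjusted p of a member was 0.999 in cerebrum, 0.184 in liver and 0.457 in muscle. By the DESeq2 Wald test, 0 members passed in cerebrum and muscle and 1 passed in liver, which was ZNF784 (adjusted p = 0.0397). The share of all genes that passed that test after adjustment is not given here, so nothing is read from this count. At an unadjusted p under 0.05 by the same test in liver there were 27 members (26%, against 28% of all genes).

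At an unadjusted p under 0.05, 0 members were higher and 1 lower in RES cerebrum, against 2.18% and 0.363% of all genes (2.55% either way). In RES liver 15 were higher and 10 lower, against 13.5% and 10.6% of all genes (24.1% either way). In RES muscle 4 were higher and 6 lower, against 5% and 4.91% of all genes (9.91% either way). The members' shares, at 0.862%, 24.04% and 8.7%, were near or under the background. Of the genes with a symbol, 3.9%, 28.1% and 10.1% had an unadjusted p under 0.05 in cerebrum, liver and muscle (edgeR). CON and RES overlapped for every member in every tissue, where 0%, 0.0296% and 0.1% of all genes did not overlap. The median log2 difference of the members, RES minus CON, was -0.07 in cerebrum, -0.06 in liver and -0.05 in muscle, beside -0.03, -0.03 and -0.01 for all genes tested.

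In liver, ZNF784 (ENSBTAG00000016299) had the lowest p. It ran from 5.85 to 10.5 CPM with a median of 8.0 in CON and from 6.81 to 17.0 CPM with a median of 11.6 in RES, in CPM normalised within the tissue as for all diet values. RES fetus 6 was the highest, and the groups overlapped. The log2 difference was 0.59 ± 0.16 (SE, adjusted p = 0.184), and with the share of mitochondrial counts as a covariate it was 0.49 (adjusted p = 0.882).

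ZNF414 (ENSBTAG00000007660) was the member that the study listed as differentially expressed in liver. The study took that list from earlier work on these animals with the Tuxedo Suite pipeline, a different test from the one used here. ZNF414 ran from 9.01 to 23.1 CPM in CON (median 11.1) and from 9.49 to 51.5 CPM in RES (median 18.0). The 4 highest values, 51.5 in RES fetus 1, 37.2 in RES fetus 6, 28.2 in RES fetus 33 and 23.1 in CON fetus 2, belonged to the 4 libraries with the highest mitochondrial shares given above. The log2 difference was 0.95 ± 0.29 (SE, adjusted p = 0.184), and with the mitochondrial share as a covariate it was 0.36 (adjusted p = 0.882). ZNF580, a gene next to ZNF784, ran from 2.44 to 6.03 CPM in CON and from 3.24 to 19.2 CPM in RES, with RES fetus 1 highest. Its log2 difference was 1.08 ± 0.34 (SE), and 0.48 with that covariate.

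The liver members with the lowest p in the other direction were the KRAB genes ZNF419 and ZNF569 and the kinetochore gene ZNF207. ZNF419 had a median of 5.74 CPM in CON (4.87 to 6.73) and of 4.12 CPM in RES (2.16 to 6.69), with a log2 difference of -0.66 ± 0.23 (SE, adjusted p = 0.184). RES fetuses 6, 1 and 33 were the lowest. ZNF569 had medians of 7.87 and 6.16 CPM and a log2 difference of -0.45 ± 0.16. ZNF207 had medians of 62.6 and 40.4 CPM, with RES fetus 1 lowest at 18.7 CPM (log2 difference -0.53 ± 0.22). With the mitochondrial share as a covariate, 4 liver members in place of 25 had an unadjusted p under 0.05 (3.85% of members, against 5.52% of all genes in the same fit), and ZNF419 stood at -0.50, ZNF569 at -0.30 and ZNF207 at -0.21. The part of mitochondrial RNA in these differences was not tested beyond that fit.

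In muscle the lowest p belonged to ZNF185, the cytoskeletal gene that preferred this tissue. It ran from 19.6 to 23.6 CPM in CON (median 22.97) and from 11.1 to 20.4 CPM in RES (median 17.4). Only RES fetus 33 lay inside the CON range, and RES fetus 6 was the lowest. The log2 difference was -0.44 ± 0.12 (SE, adjusted p = 0.457). ZNF207 had medians of 163 CPM in CON and 144 CPM in RES (log2 difference -0.20 ± 0.07), and the KRAB gene ZNF382 had medians of 18.9 and 15.9 CPM (log2 difference -0.31 ± 0.11).

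On the other side in muscle, the KRAB gene ZNF786 had a median of 36.4 CPM in CON and 41.1 CPM in RES (log2 difference 0.29 ± 0.11, SE). The ribosome factors ZNF622 and ZNF593 had medians of 34.5 and 9.30 CPM in CON and of 41.9 and 11.5 CPM in RES, with log2 differences of 0.20 ± 0.07 and 0.33 ± 0.13. None of these passed after adjustment, and CON and RES overlapped for each. Of the 52 KRAB members tested in muscle, 39 had a lower estimate in RES (51.9% of all genes did), with a median log2 difference of -0.13 beside -0.01 for all genes. In cerebrum 26 of 53 and in liver 29 of 46 KRAB members had a lower estimate. These direction counts of the KRAB members were not repeated with 1 fetus left out. RES fetuses 1 and 6 took the lowest muscle value of 18 and 37 of the 115 members, or 15.7% and 32.2%, against 12.4% and 17% of all genes. These 2 libraries also held the highest shares of the 8 muscle markers among the muscle libraries, at 0.962% and 1.07% of counts. The remaining muscle libraries ran from 0.144% (RES fetus 25) to 0.607% (RES fetus 52). As means with SD over 7 fetuses, these markers took 0.408% ± 0.127 in CON and 0.553% ± 0.357 in RES. Their part in the muscle diet estimates was not tested.

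In cerebrum, ZNF703 was the member with an unadjusted p under 0.05. It had a median of 3.45 CPM in CON (1.81 to 5.35) and of 1.99 CPM in RES (0.641 to 3.02), with a log2 difference of -0.93 ± 0.37 (SE, adjusted p = 0.999). The groups overlapped, and RES fetus 6 was lowest. ZNF467 and ZNF628 had medians of 5.17 and 4.09 CPM in CON and of 3.55 and 3.14 CPM in RES, with log2 differences of -0.53 ± 0.32 and -0.56 ± 0.37. In the other direction, ZNF346, ZNF3 and ZNF283 had medians of 36.6, 65.9 and 7.49 CPM in CON and of 41.4, 96.1 and 10.04 CPM in RES. The log2 difference of ZNF346 was 0.29, and 0.17 without RES fetus 1, its highest library. Of the 14 developmental regulators, 13 had a lower estimate in RES cerebrum, where 55.1% of all genes did. There 1 had an unadjusted p under 0.05 (7.14%, against 2.55% of all genes). Of the 11 regulators tested in liver, 10 had a lower estimate (52.1% of all genes). In that tissue 1 had an unadjusted p under 0.05 (9.09%, against 24.1%). In muscle 9 of 14 had a lower estimate (51.9% of all genes) and 0 had an unadjusted p under 0.05 (against 9.91%, edgeR). These direction counts of the regulators were not repeated with 1 fetus left out. Other signals had unlike means in the same groups of libraries. As means with SD over 7 fetuses, the 8 cerebrum markers took 0.0804% ± 0.0292 of the counts of CON cerebrum libraries and 0.0598% ± 0.018 of those of RES. The 6 hepatocyte markers took 0.0316% ± 0.0446 and 0.140% ± 0.227. That RES mean was raised by RES fetus 1 at 0.636%, and the next highest RES share was 0.155% in RES fetus 25. Medians of the hepatocyte share were 0.00799% in CON and 0.0403% in RES. Among these 6 in cerebrum, TTR had the highest median (55.4 CPM, jointly normalised) and reached 5632 CPM. ALB, AFP, AHSG, TF and SERPINC1 had medians of 4.45 CPM or less there and reached at most 216 CPM. The source of the TTR counts in cerebrum was not tested. Mitochondrial counts took 12.6% ± 14.9 of CON liver libraries and 24.7% ± 22.1 of RES ones. Their part in the estimates of the developmental regulators was not tested.

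**Figure D4:**
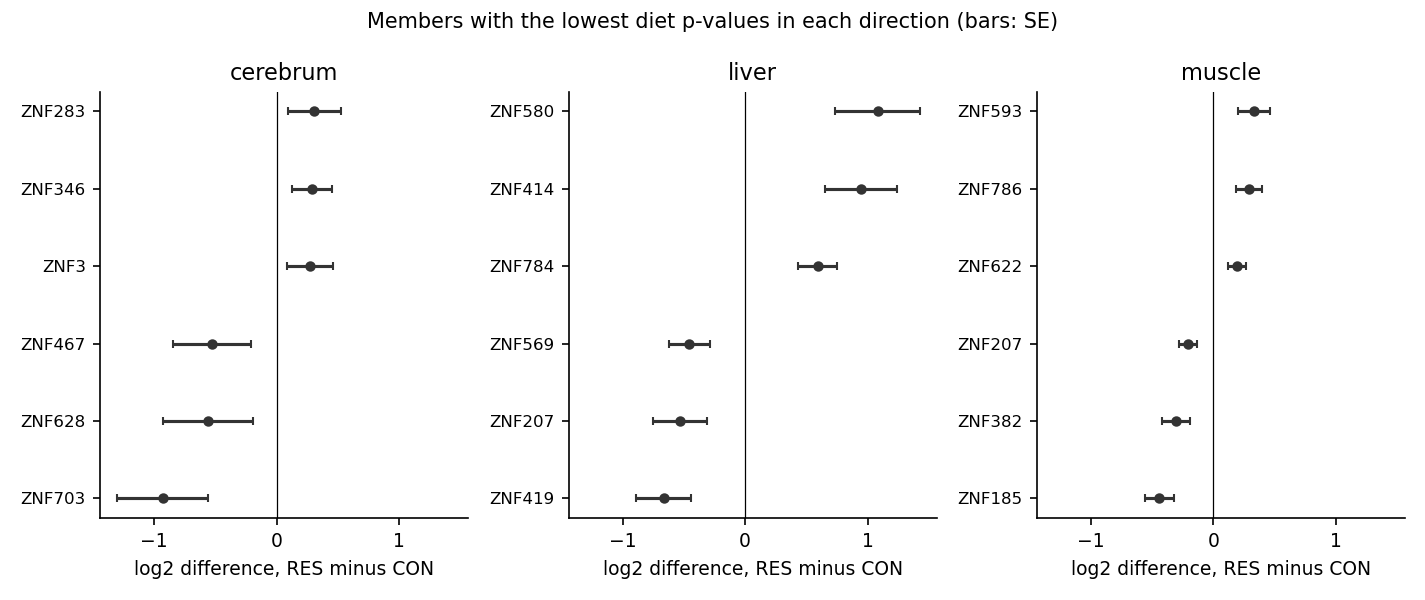
Log2 difference of RES minus CON (x axis) within cerebrum, liver and muscle for the 3 members of each direction with the lowest p (y axis). Points are estimates from the edgeR fit with sex as a covariate (7 CON and 7 RES fetuses) and bars are SE. They were chosen by p, and none passed after adjustment.

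The level of the family stood apart in a few libraries. For each member the deviation of a library from the median of its tissue was taken on the log2 CPM scale. The median deviation over the members was -0.43 in cerebrum of RES fetus 1 and -0.32 in cerebrum of CON fetus 23, where that of all genes was -0.02 and -0.05. It was -0.39 in liver of RES fetus 1 and -0.22 in liver of RES fetus 6, and -0.15 and -0.21 in muscle of RES fetuses 1 and 6. For the KRAB members alone the median deviation was -0.70, -0.59 and -0.25 in cerebrum, liver and muscle of RES fetus 1, and -0.37 and -0.39 in liver and muscle of RES fetus 6. It was -0.50 in cerebrum of CON fetus 23 and -0.36 in liver of RES fetus 33. In cerebrum, RES fetus 6 and CON fetus 2 stood at 0.33. RES fetus 1 held the lowest value of 43 of 116 members in cerebrum (37.1%, against 26.5% of all genes tested) and of 33 of 104 in liver (31.7%, against 24% of all genes).

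**Figure D5:**
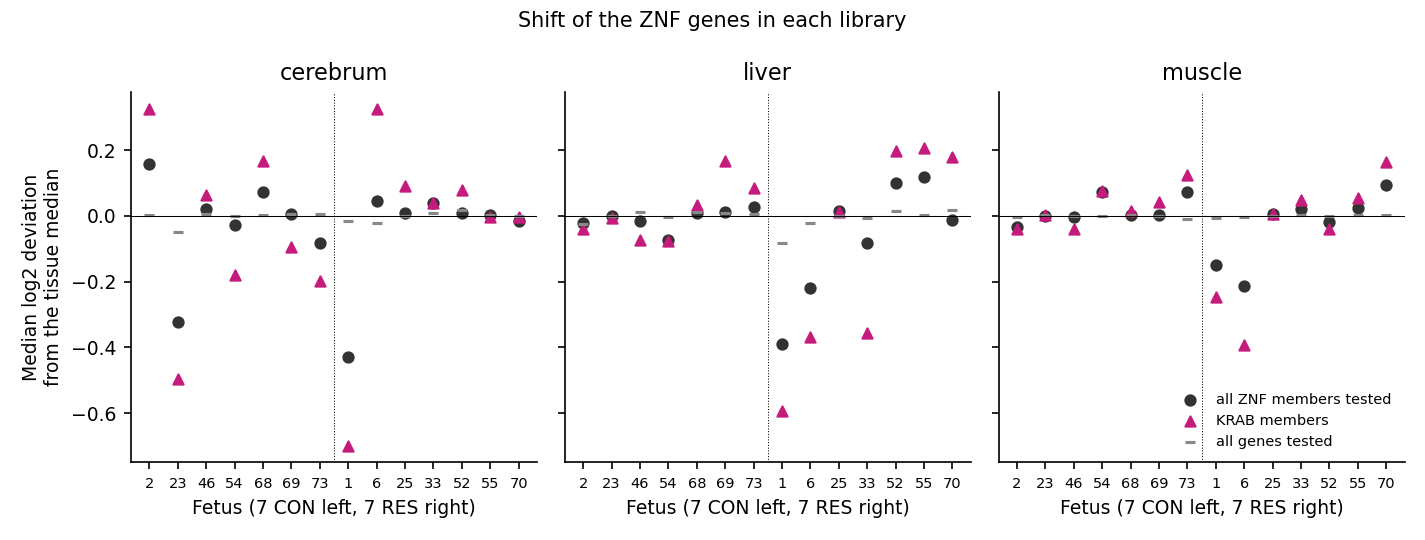
Median log2 deviation from the tissue median (y axis) in each library (x axis, fetus number, CON left and RES right of the dotted line). Circles are all ZNF members tested, triangles the KRAB members and dashes all genes tested. RES fetus 1 lies low in all 3 tissues, CON fetus 23 in cerebrum, and RES fetus 6 in liver and muscle.

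The members differed in how much they varied among fetuses. The median SD of log2 CPM over 14 libraries was 0.44 in cerebrum, 0.55 in liver and 0.25 in muscle, beside 0.52, 0.51 and 0.26 for all genes tested. In muscle it ran from 0.10 for ZNF16 to 0.71 for ZNF214, in cerebrum from 0.18 for ZNF554 to 1.42 for ZNF81, and in liver from 0.18 for ZNF395 to 1.44 for ZNF367. ZNF81 had only 128 counts over the 14 cerebrum libraries, with 2 libraries at 0, so its SD includes much counting error.

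Whether the diet difference depended on the tissue was tested as an interaction over all 42 libraries. No member passed (edgeR quasi-likelihood test, lowest adjusted p of a member 0.829, beside 0% of all genes), and 4 members had an unadjusted p under 0.05, where 5.62% of all genes did. These were ZNF467, ZNF414, ZNF142 and ZNF419.

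Fetal sex, with 3 females in 14 fetuses, gave no member that passed either. After adjustment 0 members passed, and 0.0066%, 0.00739% and 0.0134% of all genes did in cerebrum, liver and muscle (edgeR). At an unadjusted p under 0.05, 3 members were higher and 0 lower in females in cerebrum, against 1.93% and 2.16% of all genes (4.09% either way). In liver 14 were higher and 8 lower, against 11.5% and 10.8% (22.3% either way). In muscle 7 were higher and 4 lower, against 4.8% and 5.23% (10% either way). ZNF18 had among the lowest p in both liver and muscle. In muscle it ran from 16.5 to 21.8 CPM in males (median 19.0) and from 14.7 to 15.5 CPM in females (median 15.04), and the groups did not overlap. In muscle 2 members (ZNF18 and ZNF644) did not overlap between the sexes, against 1.26% of all genes, and in liver 1 (ZNF84), against 0.451%. In cerebrum 2 (ZNF276 and ZNF862) did not, against 86 of 15151 genes. ZNF644, ZNF84 and ZNF862 were named here after their values were seen. The log2 difference of ZNF18, female minus male, was -0.35 ± 0.12 (SE, adjusted p = 0.49), and in liver it was -0.88 ± 0.30 (adjusted p = 0.223). The other members named by the lowest p were ZNF276 and ZNF76 in cerebrum (log2 differences 0.60 and 0.46), ZNF784 in liver (-0.69) and ZNF281 in muscle (0.45), with adjusted p from 0.223 to 0.916. Without RES fetus 55 the ZNF76 difference was 0.29.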

How the data were processed

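Raw read counts per Ensembl gene were deposited by the authors, who sequenced strand-specific libraries as paired reads, checked them with FastQC 0.11.8 and counted them with STAR 2.7.3a on ARS-UCD 1.2; the strand setting is not given in the sources used here. Members and gene lists were chosen with earlier results of these data known. Symbols came from the study's supplementary tables, whose result values were not used, and 113 members were found by symbol in the RefSeq table. Genes under 1 CPM in at least 80% of the libraries fitted were dropped. edgeR (TMM, quasi-likelihood, Benjamini-Hochberg over all genes tested) was fitted per tissue (sex and diet) and jointly (tissue, sex and diet), and log2 CPM used a prior count of 1. SE was the log2 difference over the square root of F. Scripts were tested on simulated data. Named members were those of the developmental and RNA lists, the 4 leading each tissue, the 3 lowest p per tissue and diet direction, the 2 lowest for sex, the 3 with most counts, the member in a DEG list and the corepressor genes passing a test. Libraries with the same fetus number come from the same fetus, which pairs the tissues. The deviations of such libraries from their group means correlated over genes with a median r of 0.0934 (-0.228 to 0.335 over fetuses and tissue pairs). Alternatives were DESeq2 size factors and Wald test, other filters, no sex term, fetus as a block, no mitochondrial genes and each fetus left out. The fits with the mitochondrial share and without RES fetus 1 and CON fetus 23 were chosen after seeing the data.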

Additional observations from a re-analysis of the deposited data

Results flagged for a closer look

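In 48 groups of 7 libraries tested for a value far from the others (Dixon's ratio of gap to range), 4 had one (8.33%). Chance gives about 1 in 20 only for independent groups chosen beforehand, which these were not. The KRAB share is part of the family share, and the single members were picked by their diet p. The summed share of the family was lowest, and apart, in cerebrum of CON fetus 23 (0.264% of counts) and in cerebrum of RES fetus 1 (0.323%), and the share of the KRAB members in cerebrum of RES fetus 1 was 0.0998%. ZNF346 was highest, and apart, in cerebrum of RES fetus 1 at 63.01 CPM. These quantities were chosen with the library shares already seen.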

How the results depend on the processing

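Outside the fits that leave out 1 fetus, 143 of 151 counts stayed within 1.5 times their value and 309 of 311 values of named members kept their direction and side of the threshold. With fetus as a replicate block, cerebrum was preferred by 19 members (16.4%, against 13.5% of all genes). In that fit liver was preferred by 2 (1.72%, against 18.9%) and muscle by 7 (6.03%, against 10%), and no call of a named member was lost. Under the stricter filter, 98 members were tested for tissue, and 10 were lower in cerebrum than in muscle (32.2% of all genes in the main fit). Muscle was preferred by 3 (3.06%, against 6.62% of all genes) and cerebrum by 15.3% of members (against 7.84%). Lower in liver than in both others were 38.8% of members (against 18%). Under that filter 0 members differed by diet in cerebrum at an unadjusted p under 0.05 (1.97% of all genes did). Without RES fetus 1 and CON fetus 23 together that last count was 2 (1.72%, against 1.09% of all genes). By the DESeq2 Wald test 1 liver member passed for diet after adjustment. The share of all genes that passed is not given here, so nothing is read from this count. At an unadjusted p under 0.05 by that test there were 26% of members (28% of all genes). Without the sex covariate 10 liver and 6 muscle members had an unadjusted p under 0.05 (9.62% and 5.22%, against 9.96% and 7.02% of all genes), and with the mitochondrial share as a covariate 4 in liver (3.85%, against 5.52%). Leaving out 1 fetus at a time gave 0 to 2 members at an unadjusted p under 0.05 for diet in cerebrum (0 without RES 6 or CON 54, 2 without CON 69), 11 to 36 in liver (11 to 16 without RES 1, 6 or 33 or CON 46, 54, 69 or 73) and 5 to 17 in muscle (5 without RES 1, 17 without RES 25). For the interaction it gave 0 (without RES 1) to 17 (without CON 2), within 1.5 times only without RES 25, RES 33 or CON 46. For sex it gave 0 to 4 in cerebrum (0 without RES 55, 1 without RES 25 or CON 54, 68 or 73), 7 to 36 in liver (7 without RES 70, 11 without RES 55, 36 without RES 52) and 4 to 21 in muscle (4 to 7 without RES 1, 6, 55 or 70 or CON 2, 21 without CON 68). Directions of the diet estimates moved too. In cerebrum 41 members had a higher estimate in RES, and 36 (without CON 73) to 59 (without RES 1) with 1 fetus left out. In liver the count was 45 (40 to 47), and in muscle 45 (41 without RES 25 to 54 without RES 6). The share of all genes with a higher estimate in those fits is not given here. Liver was preferred by 2 to 4 members (4 without CON 46, or 3.45%, against 19.3% of all genes). The cerebrum minus muscle difference of ZNF18, which passed no test, was -0.019 (reversed, without RES 1) to 0.11 (without CON 2) with 1 fetus left out. In the fits without 1 fetus the share of all genes at an unadjusted p under 0.05 moved as well, for diet from 0.718% to 4.2% in cerebrum, 13.3% to 35% in liver and 6.16% to 12.6% in muscle, for the interaction from 3.49% to 14.4%, and for sex from 0.669% to 6.45%, 3.22% to 32.1% and 4.16% to 13.5% in the 3 tissues. The cause of these shifts was not tested. The 12 members under the filter in liver were not tested there for diet.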
